A study of Homo sapiens with 6 samples.

Results

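Solute carriers are the largest class of human membrane transport proteins, and their mRNAs were followed here in RNA that came down with tagged Staufen1 (Stau1) from mitotic cells. A gene was included when its symbol began with SLC and a number, lay outside SLC25A (the carriers of the mitochondrial inner membrane), and was detected on at least 3 of 6 arrays. Detected means a detection p under 0.05, which ranks a signal among the negative controls of its array. The members were thus selected on their detection p-values and not on the difference between IPs, although all 6 arrays of the comparison served for both. Of 305 such genes on the array 155 met the rule, against 12774 of all 37879 targets. They included 117 genes detected on all 6 arrays, and 132 of the 305 were detected on none. All cells were HEK293T, an established line from human embryonic kidney, treated with nocodazole at 50 ng/ml for 15 h, which depolymerizes microtubules and holds cells in prometaphase. In 3 control IPs the cells carried the empty vector, and in 3 Stau1 IPs plasmids coding for Stau155-FLAG, the FLAG-tagged 55-kDa form of Stau1. The same anti-FLAG antibody was used in both, so that the control IPs measure the RNA that sticks without tagged protein. Stau1 was expressed from a plasmid on top of the endogenous protein. The arrays measure precipitated RNA and not the level of an mRNA in the cell. Nothing in the labels says whether replicates came from separate cultures, so p-values measure only the spread between these arrays.

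Carriers move sugars, amino acids, ions, metals, vitamins and nucleotides across membranes without hydrolysing ATP themselves. Families are numbered by sequence, and most families share a kind of substrate. Many work at the plasma membrane, as GLUT1 (SLC2A1) does for glucose. Others sit in the Golgi, as the nucleotide sugar carriers of family 35 do, or in lysosomes and endosomes. Their mRNAs are mostly translated at the endoplasmic reticulum. Stau1 binds double-stranded RNA and takes part in mRNA transport, translation and decay.

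The arrays numbered 2 went against their labels and are shown singly throughout. The labels of these 2 arrays may be exchanged, which was not settled here, and every value by the labels depends on them. Over the 9884 targets detected on all 6 arrays, Pearson's r of the normalized log2 levels was 0.995 between Stau1 IPs 1 and 3, but 0.937 and 0.939 between these and Stau1 IP 2. The array labelled control IP 2 correlated at 0.982 and 0.983 with Stau1 IPs 1 and 3 and at 0.975 and 0.980 with control IPs 1 and 3. Targets are not independent replicates. Between 11635 and 13054 targets were detected per array, and between 129 and 150 of the 155 solute carriers, the fewest on Stau1 IP 2. STAU1 itself had a signal of 2499, 3246 and 2758 in the controls against 2845, 1857 and 3130.1 in the Stau1 IPs, in the order of their replicate numbers. Its log2 fold change was -0.17 (SE 0.16, adjusted p = 0.867) from limma, and its arrays overlapped between the groups. The tagged protein is precipitated here and not its mRNA, so this is no firm check of the labels. All 6 markers listed for HEK293T, among them VIM and KRT18, and all 5 for mitosis, among them CCNB1 and PLK1, were detected on every array. Of 8 markers of blood, liver, islet, heart and glia that were on the array, 5 were detected on none, among them PTPRC, HBB and ALB, and the other 3 on at least 1 array. The summed background-subtracted signal of those 8 ran from 276 to 301 in control IPs and from 220 to 382 in Stau1 IPs. Their part in the results was not tested.

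By the labels, no solute carrier differed between Stau1 IPs and control IPs at an adjusted p under 0.05. The median log2 fold change of the 155 genes was 0.12, against 0.0006 over all targets and -0.0004 over targets detected on 3 or more arrays. The members ran from -0.86 for SLC39A10 to 1.05 for SLC19A1, on normalized log2 levels. At an unadjusted p under 0.05, 19 members were higher in Stau1 IPs (12.3%) and 7 lower (4.52%). Over all targets these shares were 4.44% and 5.16%, and over targets detected on 3 or more arrays they were 9.52% and 11.4%. The study's methods asked for more than 2.5-fold and a p below 0.05 before adjustment. This was met by 0 members, by 0.0264% of all targets upwards and 0.0422% downwards. Groups that did not overlap were found for 18 members with Stau1 IPs above (11.6%) and 9 with Stau1 IPs below (5.81%). The shares were 6.71% and 7.8% of all targets, and 9.51% and 12.2% of targets detected on 3 or more arrays. The smallest adjusted p of a member was 0.208, for SLC38A2.

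Without both arrays numbered 2, which leaves 2 arrays in each group, 27 solute carriers were higher in Stau1 IPs and 3 lower at an adjusted p under 0.05. These are 17.4% and 1.94% of the members, against 3.22% and 2.34% of all targets and 8.67% and 6.43% of targets detected on 3 or more arrays. The median log2 fold change was 0.22 for the members, -0.01 for all targets and -0.05 for targets detected on 3 or more arrays. Groups did not overlap for 77 members with Stau1 IPs above (49.7%) and 24 with Stau1 IPs below (15.5%). The shares were 21.6% and 24.7% of all targets, and 30.1% and 36.2% of targets detected on 3 or more arrays. At an unadjusted p under 0.05, 51 members were higher (32.9%) and 15 lower (9.68%). This held for 8.97% and 9.91% of all targets, and for 21.0% and 24.1% of targets detected on 3 or more arrays. More than 2.5-fold at such a p was reached by 4 members upwards, SLC19A3, SLC35E3, SLC30A6 and SLC19A1, and by 0 downwards (1.21% and 0.277% of all targets). The upward share was 2.58% of the members and 3.41% of targets detected on 3 or more arrays. Of the 117 members detected on all 6 arrays, 20 were called higher and 3 lower, and the other 7 called genes were detected on 3 to 5 arrays. Of these, SLC2A10, SLC30A6, SLC39A9 and SLC6A17 became members only through control IP 2 and Stau1 IPs 1 and 3, the arrays on which they were high, so their calls are no independent result. Without SLC6A10P, whose target may read the RNA of SLC6A8, 26 were called higher. The arrays numbered 2 were set aside with earlier results of these data known, so the calls describe the other 4 arrays and do not replace the comparison of all 6. With Stau1 IP 1 or Stau1 IP 3 left out as well, no member and none of all targets was called, and the members' median log2 fold change was 0.21 in both cases. The methods' t-test called none at the adjusted p. Variance stabilization with spline normalization, modelled on the methods but tested with limma, called 6 members and 2.03% of all targets. In each of these settings all 30 genes kept their direction. In what follows, "over 4 arrays" means control IPs 1 and 3 against Stau1 IPs 1 and 3, with log2 fold changes and adjusted p from limma over all targets, and signals are the deposited intensities in the order of the replicate numbers. Targets read through different probes, so signals of different genes are not compared.

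Among the vitamin and folate carriers both largest differences over 4 arrays belonged to family 19. SLC19A1, the reduced folate carrier of the plasma membrane, is on chromosome 21 and had a signal of 497, 1407 and 873 on control IPs 1, 2 and 3, and of 2217, 964 and 2263 on Stau1 IPs 1, 2 and 3. Its normalized log2 level was 9.64 ± 0.63 (SD, n = 3) with the control label and 10.68 ± 0.56 (SD, n = 3) with the Stau1 label. By the labels its log2 fold change was 1.05 (SE 0.40, adjusted p = 0.489), the highest of the genes detected on all 6 arrays. Stau1 IPs 1 and 3 stood apart at the top, while control IP 2 lay above Stau1 IP 2, so the groups overlap. Over 4 arrays SLC19A1 rose by a log2 fold change of 1.63 (SE 0.27, adjusted p = 0.0388). SLC19A3, a thiamine transporter on chromosome 2, had a signal of 103, 259 and 117 with the control label and 295, 100.1 and 328 with the Stau1 label. It was detected on 4 arrays, those with the 4 highest signals, 2 in each labelled group. The log2 fold change was 0.64 (SE 0.89, adjusted p = 0.922) by the labels and 2.14 (SE 0.17, adjusted p = 0.0117) over 4 arrays, the largest of all members. SLC19A2, the other thiamine transporter of the family, stayed near background with a signal of 110.3, 135 and 108 in control IPs and 108, 113 and 113 in Stau1 IPs and a log2 fold change of -0.23 (SE 0.11, adjusted p = 0.357) over 4 arrays. SLC46A1, the proton-coupled folate transporter, had 256, 288 and 344 in the controls against 402, 427 and 449.6 in the Stau1 IPs, with all Stau1 IPs above all control IPs on the normalized scale. Its log2 fold change by the labels was 0.66 (SE 0.23, adjusted p = 0.433), and 0.32 (SE 0.16, adjusted p = 0.411) over 4 arrays. Of the 7 members of this group, 2 were called over 4 arrays, both higher, beside 8.67% of targets detected on 3 or more arrays.

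**Figure D1:**
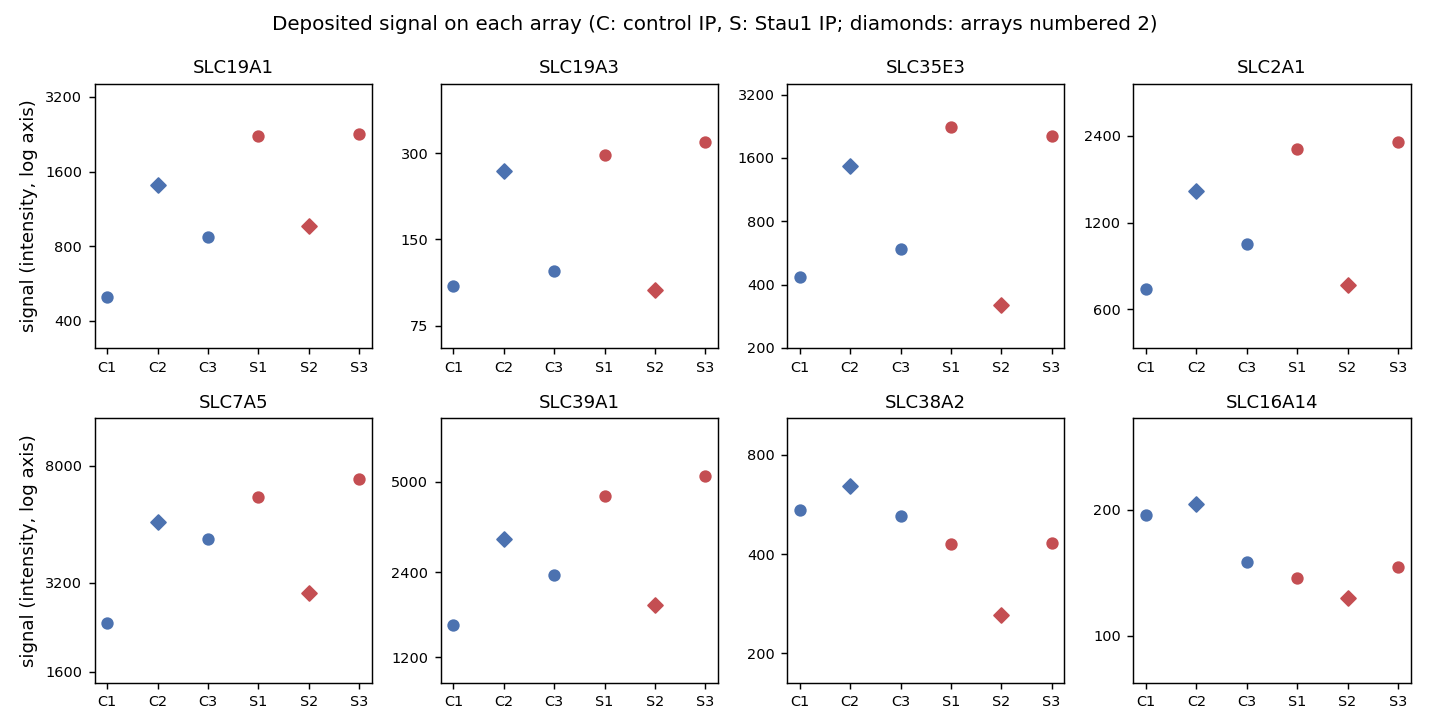
Deposited signal (intensity, log axis) of 8 solute carrier mRNAs on each array, with control IPs in blue, Stau1 IPs in red and the arrays numbered 2 as diamonds. In the first 6 panels the diamond of control IP 2 lies above that of Stau1 IP 2, while for SLC38A2 and SLC16A14 all 3 Stau1 IPs lie below all control IPs.

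Of 14 detected members of the sugar carrier families, 4 rose over 4 arrays and 0 fell. The shares called among targets detected on 3 or more arrays were 8.67% higher and 6.43% lower. SLC2A1, which encodes the basal glucose transporter GLUT1, had a signal of 702, 1544 and 1009 on control IPs 1, 2 and 3, and of 2161, 725 and 2280.2 on Stau1 IPs 1, 2 and 3. Stau1 IPs 1 and 3 were the highest, control IP 2 came next, and Stau1 IP 2 lay with control IP 1. The log2 fold change was 0.59 (SE 0.43, adjusted p = 0.796) by the labels and 1.24 (SE 0.17, adjusted p = 0.0284) over 4 arrays, a fold of 2.35. SLC2A8 encodes GLUT8, a glucose transporter of intracellular membranes, and had 996, 2149 and 1415 with the control label and 2995, 1635 and 3279 with the Stau1 label. Its value was 0.80 (SE 0.30, adjusted p = 0.476) by the labels, and it rose by 1.26 (SE 0.16, adjusted p = 0.023) over 4 arrays. SLC37A4, the glucose-6-phosphate translocase of the endoplasmic reticulum, had 4505, 6428 and 4729 in control IPs and 6648, 5419 and 7850.1 in Stau1 IPs, and rose by 0.62 (SE 0.10, adjusted p = 0.0394) over 4 arrays. SLC2A10 (GLUT10) was detected on 3 arrays, with 125, 214 and 128 in the controls against 228, 105 and 242 in the Stau1 IPs. Control IPs 1 and 3 were both below detection, and its measured level in Stau1 IPs 1 and 3 was 2.16-fold theirs (adjusted p = 0.0142). SLC2A10 was chosen through the arrays on which it was high. For a gene that no array of a group detected, a bound was set from the higher of its own value and the lowest detected level of each array. For the genes named here the own value was the higher. The bound thus equals the measured fold and is no lower limit. SLC2A3 (GLUT3, the high-affinity glucose transporter) had 229, 431 and 306 with the control label and 441, 197 and 386 with the Stau1 label and did not pass over 4 arrays, with 0.49 (SE 0.20, adjusted p = 0.299). SLC2A6 (GLUT6) did not pass either, with 0.77 (SE 0.26, adjusted p = 0.194), although on the normalized scale its Stau1 IPs all lay above its control IPs, with signals of 461, 843 and 788 in control IPs and 1119, 891 and 1251 in Stau1 IPs. Its log2 fold change by the labels was 0.70 (SE 0.20, adjusted p = 0.345).

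Family 35, grouped here as nucleotide sugar carriers, gave the most calls of any group over 4 arrays, with 6 of 18 higher and 0 lower. The group name follows the family number and not the substrate of each gene. Its median log2 fold change over 4 arrays was 0.12, against 0.22 for all members. Calls among targets detected on 3 or more arrays came to 8.67% higher and 6.43% lower. Family 35 supplies the Golgi and endoplasmic reticulum with activated sugars and sulfate for glycosylation, and several members still have no assigned substrate. SLC35E3, one of those without an assigned substrate, had a signal of 433, 1469 and 590.1 on control IPs 1, 2 and 3, and of 2254, 319 and 2042 on Stau1 IPs 1, 2 and 3. It was lowest on the array labelled Stau1 IP 2 and high on control IP 2, and the log2 fold change by the labels was 0.70 (SE 0.80, adjusted p = 0.899). Over 4 arrays it was 1.99 (SE 0.19, adjusted p = 0.015), a fold of 3.96. SLC35E1 had 1132, 2689.8 and 1618 in the controls against 3219, 1452 and 3915 in the Stau1 IPs, and rose by 1.26 (SE 0.18, adjusted p = 0.0284) over 4 arrays. SLC35B2 carries the sulfate donor PAPS into the Golgi and had 2509, 4118 and 3175 with the control label and 6243, 3065 and 6377 with the Stau1 label. It rose by 1.09 (SE 0.13, adjusted p = 0.0216) over 4 arrays. SLC35B3, the other PAPS carrier, had 341, 348 and 285 in control IPs and 258, 225 and 306 in Stau1 IPs and -0.54 (SE 0.18, adjusted p = 0.182), and a difference between the 2 carriers was not tested. SLC35A2, the UDP-galactose carrier, had 388, 632 and 499 in the controls against 923, 416 and 970.1 in the Stau1 IPs. The difference was 0.58 (SE 0.25, adjusted p = 0.552) by the labels on the log2 scale and 0.92 (SE 0.14, adjusted p = 0.0317) over 4 arrays. SLC35A3, which carries UDP-N-acetylglucosamine, had 244, 514 and 273 with the control label and 415, 143 and 504 with the Stau1 label, with control IP 2 the highest and Stau1 IP 2 the lowest. It rose by 0.69 (SE 0.12, adjusted p = 0.0423) over 4 arrays while its value by the labels was -0.20. SLC35F1 was lowest on Stau1 IP 2 too, with 476, 969.8 and 514 in control IPs and 921, 270.3 and 1104 in Stau1 IPs and 0.83 (SE 0.11, adjusted p = 0.0238) over 4 arrays. SLC35A4 had 3067, 4247 and 3977 in the controls against 5180.4, 5145 and 6540.4 in the Stau1 IPs, and on the normalized scale every Stau1 IP lay above every control IP. Its log2 fold change was 0.58 (SE 0.12, adjusted p = 0.238) by the labels and 0.67 (SE 0.15, adjusted p = 0.0827) over 4 arrays. The CMP-sialic acid carrier SLC35A1 had 498, 567 and 459 with the control label and 466, 300.4 and 492 with the Stau1 label and -0.38 (SE 0.12, adjusted p = 0.37) by the labels, and SLC35B3 had -0.42 (SE 0.15, adjusted p = 0.436).

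**Figure D2:**
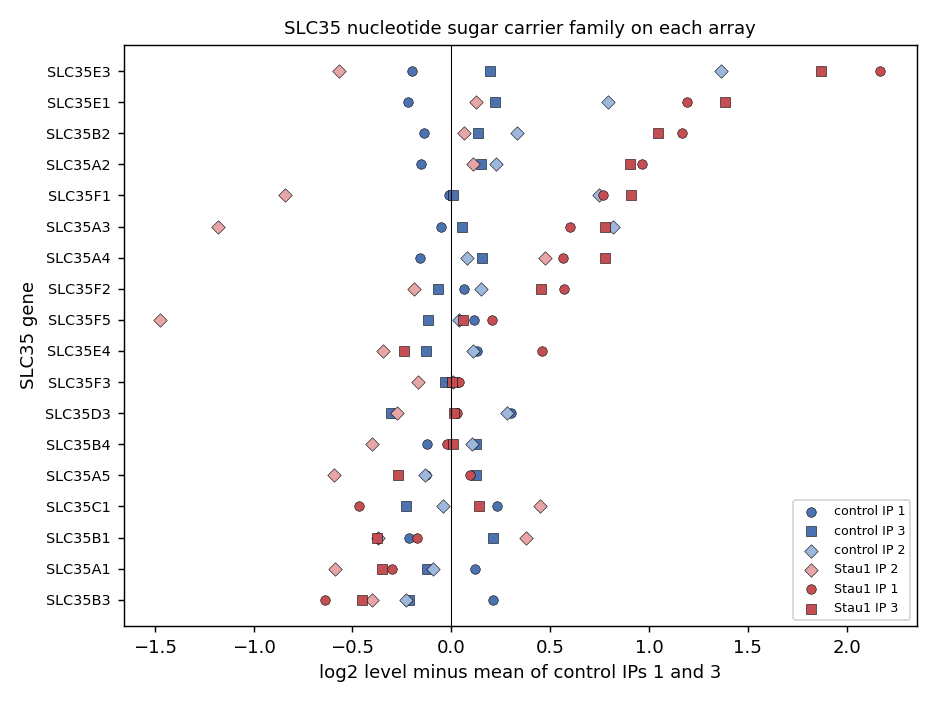
Normalized log2 level of the 18 detected SLC35 genes on each array minus the mean of control IPs 1 and 3, with control IPs in blue, Stau1 IPs in red and the arrays numbered 2 as pale diamonds. For SLC35E3, SLC35F1 and SLC35A3 control IP 2 lies to the right near Stau1 IPs 1 and 3, and Stau1 IP 2 lies to the left of all other arrays.

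Groups follow family numbers, so that the amino acid families also hold a creatine carrier. They were the largest group, with 31 members, of which 3 rose and 1 fell over 4 arrays. Among targets detected on 3 or more arrays 8.67% were called higher and 6.43% lower. SLC6A8, the creatine transporter of family 6, had a signal of 1228, 2789 and 1472 in control IPs and 2991, 1874 and 3842 in Stau1 IPs and rose by 1.21 (SE 0.14, adjusted p = 0.0189) over 4 arrays. SLC6A10P, a pseudogene copy of SLC6A8 on chromosome 16, had 1419.8, 3217 and 1654 in the controls against 3273, 2174 and 4078 in the Stau1 IPs and 1.13 (SE 0.12, adjusted p = 0.0177). The sequences are nearly identical, so the 2 targets may read the same RNA, although both are among the 27 called higher. SLC43A2, which carries branched-chain amino acids, had 192, 316 and 212 with the control label and 378, 184 and 439.7 with the Stau1 label and rose by 0.97 (SE 0.11, adjusted p = 0.0196). SLC6A17, a carrier of synaptic vesicles, was detected on 3 arrays, with 89.3, 134 and 100.0 in control IPs and 132, 103 and 145 in Stau1 IPs. Its measured level in Stau1 IPs 1 and 3 was 1.92-fold that of control IPs 1 and 3, both below detection (adjusted p = 0.0431). SLC6A17 too was chosen through the arrays on which it was high. SLC7A5, the light chain LAT1 that imports large neutral amino acids, had 2343, 5132 and 4512 in the controls against 6279, 2949 and 7237 in the Stau1 IPs, and did not pass with 1.00 (SE 0.29, adjusted p = 0.143) over 4 arrays. Its partner SLC3A2, the heavy chain CD98 that brings LAT1 to the surface, had 854, 1007 and 1499 with the control label and 1517, 1561 and 1668 with the Stau1 label. The heavy chain showed 0.52 (SE 0.23, adjusted p = 0.566) by the labels and 0.30 (SE 0.25, adjusted p = 0.679) over 4 arrays, and on the normalized scale control IP 3 lay among the Stau1 IPs. For the glutamine transporter SLC1A5 (ASCT2) the signals were 3938, 5472 and 5543 in control IPs and 6616, 6704 and 8036 in Stau1 IPs, and on the normalized scale every Stau1 IP lay above every control IP. The log2 fold change was 0.52 (SE 0.14, adjusted p = 0.318) by the labels and 0.60 (SE 0.18, adjusted p = 0.153) over 4 arrays. SLC1A4 (ASCT1) also had all Stau1 IPs above all control IPs on that scale, with 137, 231 and 193 in the controls against 310.5, 206 and 337 in the Stau1 IPs, 0.88 (SE 0.22, adjusted p = 0.29) by the labels and 1.07 (SE 0.27, adjusted p = 0.0977) over 4 arrays. SLC38A7, a lysosomal glutamine exporter, had 185, 317 and 332 with the control label and 328, 477 and 374 with the Stau1 label and 0.68 (SE 0.38, adjusted p = 0.688) by the labels. SLC7A11, the cystine importer, fell outside the rule, detected on 2 arrays, both Stau1 IPs.

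SLC38A2 was the only amino acid carrier called lower. It encodes SNAT2, a sodium-coupled importer of small neutral amino acids that starved cells induce, and had a signal of 544, 643 and 521 on control IPs 1, 2 and 3, and of 428, 261 and 431 on Stau1 IPs 1, 2 and 3. Its normalized log2 level was 8.99 ± 0.10 (SD, n = 3) with the control label and 8.21 ± 0.21 (SD, n = 3) with the Stau1 label, and the groups did not overlap. Here both arrays numbered 2 lay on the side of their labels, Stau1 IP 2 the lowest of the 6. The log2 fold change was -0.78 (SE 0.13, adjusted p = 0.208) by the labels and -0.68 (SE 0.12, adjusted p = 0.0467) over 4 arrays. SLC4A11, of the bicarbonate carrier family and best known from the corneal endothelium, and SLC7A6OS were the other genes called lower over 4 arrays. SLC4A11 had 444, 470.4 and 534 in control IPs and 379, 625 and 395 in Stau1 IPs. On the log2 scale the difference was -0.70 (SE 0.12, adjusted p = 0.0409) over 4 arrays and -0.14 by the labels, where Stau1 IP 2 was the highest array. SLC7A6OS, which is transcribed from the strand opposite to SLC7A6 and is no carrier, had 346, 295 and 361 in the controls against 260.4, 345 and 281 in the Stau1 IPs and -0.83 (SE 0.10, adjusted p = 0.0203) over 4 arrays. The carrier SLC7A6 on the other strand had 270.4, 423 and 304 with the control label and 379.5, 235 and 472 with the Stau1 label and 0.36 (SE 0.12, adjusted p = 0.2). SLC16A14, an orphan of the monocarboxylate family, had 194, 207 and 150.1 in control IPs and 137, 123 and 146 in Stau1 IPs, all Stau1 IPs below all control IPs. It had the second smallest p by the labels among lower members with -0.83 (SE 0.18, adjusted p = 0.238), and -0.80 (SE 0.23, adjusted p = 0.14) over 4 arrays. SLC16A9 of the same family had 319, 406 and 296 in the controls against 301, 205 and 284 in the Stau1 IPs and -0.49 (SE 0.12, adjusted p = 0.261) by the labels. The lowest value by the labels over genes detected on every array was that of SLC16A14. SLC30A9 (938, 1259 and 1103 with the control label and 1059, 585 and 929 with the Stau1 label) and the iron exporter SLC40A1 (130.2, 131 and 109 in control IPs and 112, 104 and 117 in Stau1 IPs) also had Stau1 IPs below control IPs on the normalized scale. Their values were -0.46 (SE 0.15, adjusted p = 0.41) and -0.48 (SE 0.20, adjusted p = 0.522) by the labels. Of SLC39A6, SLC36A4, SLC38A9, SLC1A1 and SLC4A1AP, which the naming rule adds, none passed in either comparison. Their log2 fold changes by the labels were -0.60, -0.43, -0.56, -0.24 and -0.33, and over 4 arrays -0.30, -0.78, -0.41, -0.54 and -0.54.

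**Figure D3:**
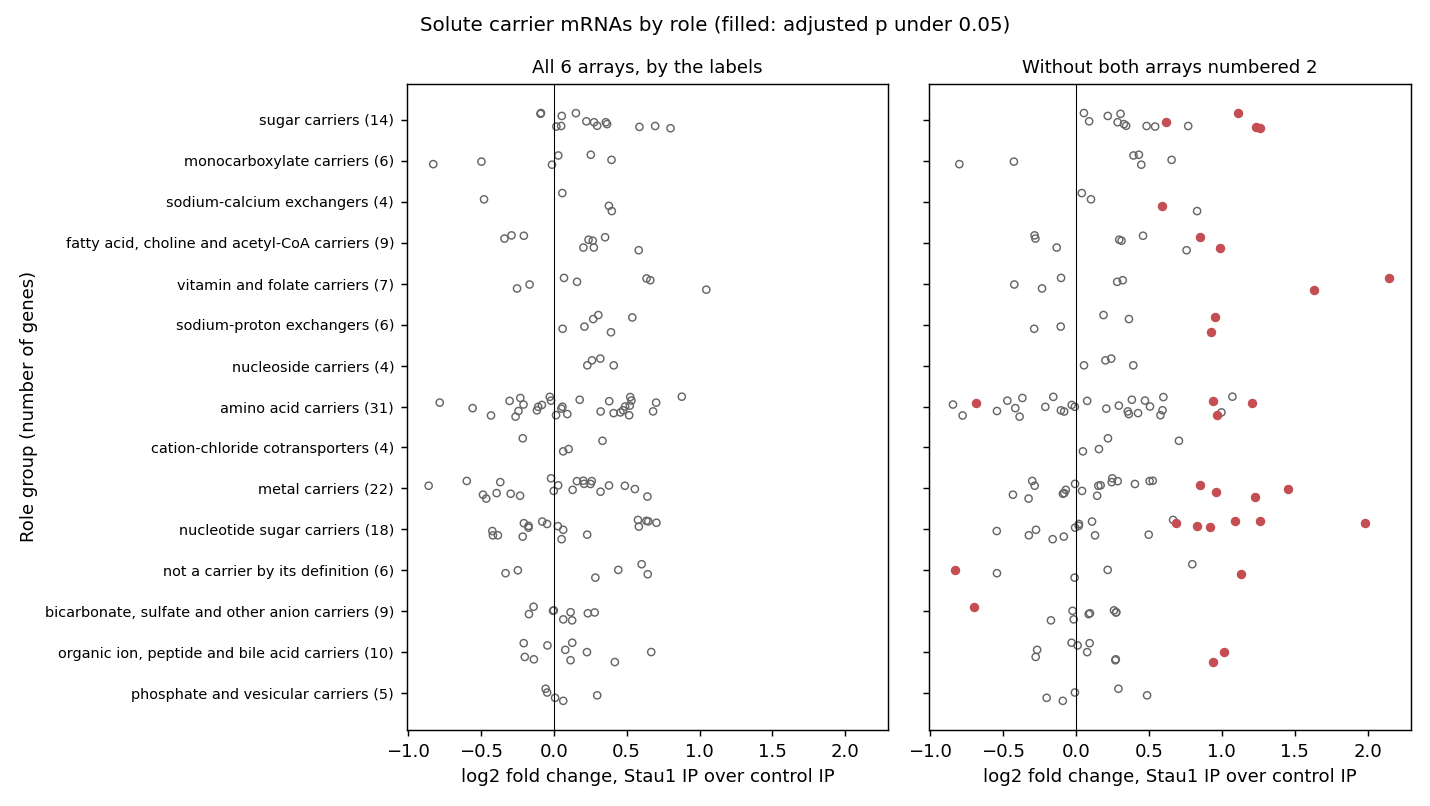
Log2 fold change of Stau1 IP over control IP for the 155 genes by role group, for all 6 arrays on the left and without both arrays numbered 2 on the right, each circle a gene and filled circles those with an adjusted p under 0.05. No circle is filled on the left, and on the right 27 filled circles lie above 0 and 3 below.

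Metal carriers had 22 members, of which 4 rose and 0 fell over 4 arrays. Targets detected on 3 or more arrays had 8.67% called higher and 6.43% lower. SLC39A1 (ZIP1), a zinc importer of the plasma membrane, had a signal of 1561, 3147 and 2336 in the controls against 4461, 1838 and 5229.7 in the Stau1 IPs. It rose by 1.23 (SE 0.19, adjusted p = 0.0343) over 4 arrays, and by the labels its value was 0.64 (SE 0.41, adjusted p = 0.743). SLC30A6 (ZnT6), which acts in loading zinc into the Golgi, had 89.2, 138 and 86.7 with the control label and 142, 90.7 and 169 with the Stau1 label. It was detected on control IP 2 and Stau1 IPs 1 and 3 alone. Over 4 arrays its measured level was 2.74-fold higher in Stau1 IPs (adjusted p = 0.0131). SLC39A9 (ZIP9) was detected on the same 3 arrays with 95.3, 145 and 98.4 in control IPs and 147, 103 and 141 in Stau1 IPs. Its measured level was 1.95-fold higher over 4 arrays (adjusted p = 0.0288). Both genes met the detection rule only through the arrays on which they were high. SLC31A1, the copper importer CTR1, had 877, 1718 and 1181 in the controls against 2034, 901 and 2133 in the Stau1 IPs and rose by 0.85 (SE 0.15, adjusted p = 0.0434) over 4 arrays. Its relative SLC31A2 had 253, 323 and 262 with the control label and 392, 223 and 380.0 with the Stau1 label and 0.41 (SE 0.12, adjusted p = 0.14). The zinc exporter of the surface, SLC30A1 (ZnT1), did not pass, with 188, 239 and 211 in control IPs and 276, 165 and 273 in Stau1 IPs and 0.29 (SE 0.12, adjusted p = 0.314) over 4 arrays. SLC39A14 (ZIP14) had 0.17 (SE 0.11, adjusted p = 0.548) and SLC11A2, the iron importer DMT1, had 0.15 (SE 0.11, adjusted p = 0.64). For SLC39A10 the signals were 188, 242 and 177 in the controls against 185, 105 and 192 in the Stau1 IPs, and its low value by the labels, -0.86 (SE 0.45, adjusted p = 0.656), came with Stau1 IP 2 at the bottom, where it was not detected.

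Both detected choline transporter-like genes with a call were of family 44. SLC44A1 had a signal of 503, 1109 and 589.6 with the control label and 1205, 337 and 1249.8 with the Stau1 label and rose by 0.99 (SE 0.11, adjusted p = 0.0189) over 4 arrays, with Stau1 IP 2 the lowest of all arrays. SLC44A2 had 728, 1493 and 999 in control IPs and 1714, 729 and 1801 in Stau1 IPs and 0.85 (SE 0.15, adjusted p = 0.0481). SLC44A4 missed the threshold with 0.76 (SE 0.15, adjusted p = 0.0603), and SLC33A1, which carries acetyl-CoA into the endoplasmic reticulum, had 0.46 (SE 0.13, adjusted p = 0.125). The organellar sodium-proton exchangers SLC9A8 (NHE8) and SLC9A9 (NHE9) rose by 0.95 (SE 0.17, adjusted p = 0.0441) and 0.93 (SE 0.15, adjusted p = 0.0362). Their signals were 184, 402 and 231 in the controls against 400.1, 243 and 415 in the Stau1 IPs for SLC9A8 and 107, 137 and 97.7 with the control label and 151, 107 and 158 with the Stau1 label for SLC9A9, in both cases with control IP 2 above Stau1 IP 2. SLC15A4, a histidine and peptide carrier of lysosomes, had 483, 788 and 528 in control IPs and 1085, 378 and 1124 in Stau1 IPs and rose by 0.94 (SE 0.10, adjusted p = 0.0173). SLC22A4, an organic cation carrier (OCTN1), lay near background with 89.9, 115 and 93.8 in the controls against 133, 109 and 141 in the Stau1 IPs and had 1.01 (SE 0.11, adjusted p = 0.0177). On the normalized scale its Stau1 IPs all lay above its control IPs, and its value by the labels was 0.67 (SE 0.22, adjusted p = 0.401). SLC8A2, a sodium-calcium exchanger, had 109, 158 and 111 with the control label and 142, 130.4 and 157 with the Stau1 label and 0.59 (SE 0.10, adjusted p = 0.0426).

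Other well-known carriers did not pass over 4 arrays. SLC20A1, the phosphate importer PiT-1, had a signal of 4309, 5325 and 5487 in control IPs and 5988, 2827 and 6360.4 in Stau1 IPs and a log2 fold change of 0.29 (SE 0.14, adjusted p = 0.393). SLC12A2, the sodium-potassium-chloride cotransporter NKCC1, had 149.8, 234 and 159 in the controls against 179, 125 and 219 in the Stau1 IPs and 0.22 (SE 0.13, adjusted p = 0.517). The anion exchanger SLC4A2 had 644, 906 and 855 with the control label and 1037, 823 and 1093 with the Stau1 label and 0.28 (SE 0.14, adjusted p = 0.426), with all Stau1 IPs above all control IPs once normalized. For the nucleoside transporter SLC29A1 (ENT1) the signals were 298, 375 and 330.0 in control IPs and 421, 344 and 449 in Stau1 IPs, and control IPs 1 and 3 did not reach detection. Its measured level was 1.18-fold higher in Stau1 IPs 1 and 3 (adjusted p = 0.297), and by the labels the log2 fold change was 0.32 (SE 0.08, adjusted p = 0.287). SLC9A3R1, a PDZ scaffold that anchors transporters and is no carrier itself, had 1749.6, 2229 and 2453 in the controls against 2495, 3719 and 2941 in the Stau1 IPs, with Stau1 IP 2 the highest. Its log2 fold change was 0.44 (SE 0.19, adjusted p = 0.546) by the labels and 0.22 (SE 0.16, adjusted p = 0.629) over 4 arrays. Of the 21 well-known genes listed, 17 were members, and SLC38A1, SLC16A1 and SLC16A3 were detected on no array. BSG, the chaperone of the lactate carriers SLC16A1 and SLC16A3, was detected on all arrays at 5874, 6313 and 5588 with the control label and 6208, 9173 and 8131 with the Stau1 label and had 0.39 (SE 0.12, adjusted p = 0.361) by the labels.

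The arrays numbered 2 took no part in the calls over 4 arrays, but control IP 2 decided the membership of SLC2A10, SLC30A6, SLC39A9 and SLC6A17. On each gene's scale 0 was the mean of control IPs 1 and 3 and 1 the mean of Stau1 IPs 1 and 3. Over the 27 genes called higher the array labelled control IP 2 had a median position of 0.63 and that labelled Stau1 IP 2 one of -0.06. Control IP 2 lay nearer to Stau1 IPs 1 and 3 for 19 of these genes, and Stau1 IP 2 nearer to control IPs 1 and 3 for 25. Both held for 17, among them SLC19A3, SLC35E3 and SLC2A1. Control IP 2 was above Stau1 IP 2 for 26 of the 27, SLC22A4 being the exception. Over the 20 genes called higher that all 6 arrays detected, whose membership turned on no single array, the median positions were 0.61 and 0.05. Control IP 2 was nearer to Stau1 IPs 1 and 3 for 14 of these, Stau1 IP 2 nearer to control IPs 1 and 3 for 18, and control IP 2 above Stau1 IP 2 for 20. Over the 1219 targets called higher in the whole array, the median positions were 0.58 and 0.12, and control IP 2 was above Stau1 IP 2 for 971. Of the 3 genes called lower, SLC4A11 and SLC7A6OS had control IP 2 below Stau1 IP 2, and SLC38A2 did not. Over all 155 members, control IP 2 lay above both other control IPs for 68 (43.9%, against 31% of all targets) and below both for 32 (20.6%, against 34.7%). Stau1 IP 2 lay below both other Stau1 IPs for 97 (62.6%, against 36.1%) and above both for 49 (31.6%, against 40.5%). Among targets detected on 3 or more arrays these shares were 29.9%, 36.7%, 42.4% and 47.5%, in the same order. Some members met the detection rule only with control IP 2, so a high place of that array is partly built into membership. Over the 117 members detected on all 6 arrays the counts were 46, 23, 72 and 38, in the same order.

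**Figure D4:**
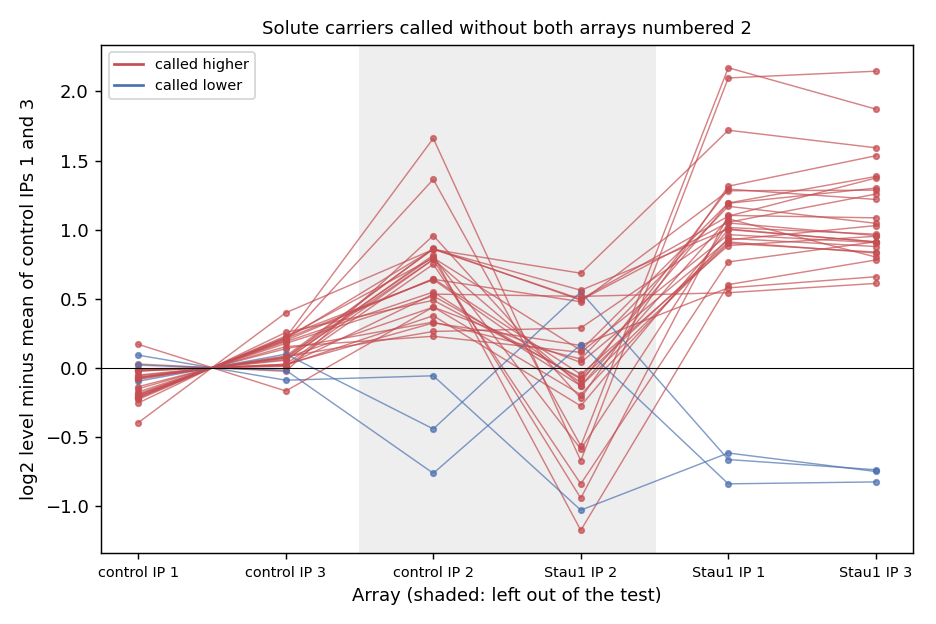
Normalized log2 level of the 30 called solute carriers on each array minus the mean of control IPs 1 and 3, with a line per gene, red for the 27 called higher and blue for the 3 called lower. The arrays numbered 2 (shaded) were not used in the test, and the red lines run high on control IP 2 and low on Stau1 IP 2, with median positions of 0.63 and -0.06.

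Over roles and in both directions together, amino acid carriers had 4 calls among 31 members (12.9%) and sugar carriers 4 of 14 (28.6%). Metal carriers had 4 of 22 (18.2%) and nucleotide sugar carriers 6 of 18 (33.3%). All targets gave 3.22% higher and 2.34% lower. Targets detected on 3 or more arrays gave 8.67% higher and 6.43% lower. Members were selected on detection, so the latter shares are those to set beside the role and location counts here. The role percentages hold both directions and are to be set beside the sum of 8.67% and 6.43%. Amino acid carriers lay below that sum. No call was made among the 6 monocarboxylate, 5 phosphate and vesicular, 4 cation-chloride and 4 nucleoside carriers. Sodium-proton exchangers had 2 of 6 (33.3%). The median log2 fold change over 4 arrays was 0.42 for sugar carriers, 0.41 for monocarboxylate carriers, 0.21 for amino acid carriers, 0.16 for metal carriers, 0.12 for nucleotide sugar carriers and -0.01 for phosphate and vesicular carriers, against 0.22 for all members. In the array's annotation 20 members were placed in the Golgi, 6 of them called higher and 0 lower, and 76 in the plasma membrane, 9 of them called higher and 1 lower. The mean log2 level over 6 arrays ran from 5.45 to 12.5 (median 9.25) among the genes called higher and from 4.89 to 12.9 (median 7.50) among those not called. By their definitions 6 of the 155 symbols are not carriers, namely SLC7A6OS, SLC4A1AP, SLC9A3R1, SLC9A3R2, SLC2A4RG and SLC6A10P.

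The other membrane transporters listed were counted in the same way, against 8.67% higher and 6.43% lower among all targets detected on 3 or more arrays (3.22% and 2.34% of all targets). Percentages called hold both directions here too, to be set beside the sum of 8.67% and 6.43%. SLC25A carriers of mitochondria had 33 detected genes with 8 higher and 0 lower (24.2% called) and a median log2 fold change of 0.31. ABC transporters, which do hydrolyse ATP, had 26 with 0 higher and 2 lower (7.69%), and a median of 0.18. Subunits of the vacuolar proton pump (ATP6V) had 18 with 1 higher and 2 lower (16.7%), and a median of -0.16. The 3 SLCO organic anion carriers and the 4 sodium pump subunits (ATP1) had no call. Differences between these lists and the solute carriers were not tested.

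The edge of the detection rule did not follow the signal alone. The 13 genes just inside, detected on exactly 3 arrays, included SLC2A10, SLC30A6, SLC2A12 (110.2, 129.7 and 91.4 in control IPs and 102, 95.6 and 141 in Stau1 IPs) and SLC22A18 (163, 181 and 164 in the controls against 188, 163 and 190.0 in the Stau1 IPs). The 7 just outside, on exactly 2 arrays, included SLC13A2 (89.3, 132 and 99.2 with the control label and 97.5, 117 and 102 with the Stau1 label), SLC26A1 (87.8, 100.4 and 85.7 in control IPs and 86.5, 101 and 91.8 in Stau1 IPs), SLC22A17 (239, 309 and 265 in the controls against 361, 291 and 367 in the Stau1 IPs) and SLC35C2 (262, 482 and 383 with the control label and 817, 413 and 893 with the Stau1 label). SLC35C2 was detected on control IP 1, where its signal was lowest, and on Stau1 IP 1, and missed detection on brighter arrays. The table does not show the reason for such misses. A signal above 500 on an array that did not detect the gene was found for 1 member, SLC16A12, and for 3 solute carriers outside the rule.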

How the data were processed

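RNA from anti-FLAG immunoprecipitates of HEK293T cells was measured on Illumina HumanWG-6_V3 bead arrays, 3 control IPs and 3 Stau1 IPs. The authors deposited, from BeadStudio, non-normalized signal intensities and detection p-values for 37879 targets, with bead numbers and array annotation. Control probes were not used here, so their mean and SD on each array were read from the 200 targets nearest each of 3 detection p-values; limma's own fit to the detection p-values was left because bright targets with a high detection p distorted it. Signals were then background-corrected by normexp, given an offset of 16, quantile-normalized and taken to log2. Groups were compared with lmFit and eBayes of limma 3.58.1 in R 4.3.3, over all 37879 targets, with Benjamini-Hochberg adjustment. The study's methods called targets with more than 2.5-fold and a p below 0.05 before adjustment. Only 6 arrays limit the precision. No slide or scan batch is given in the sources used here, and no genome build is named, so chromosomes are those of the deposited annotation.

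The members, role lists and tests were chosen with earlier results of these data known, as was the comparison without both arrays numbered 2. Named were 21 well-known solute carriers where detected, the 8 highest and 8 lowest log2 fold changes among genes detected on all arrays in each comparison, genes past the methods' threshold, and up to 4 genes on each side of the detection rule. The other called genes, and others with a role beside them, were named after their values were seen. Values of 1 of the well-known genes and 1 of the markers are not reported here. All 155 symbols matched RefSeq names (GRCh38.p14), and 5 have newer symbols there, among them NHERF1 for SLC9A3R1 and SLC67A1 for SLC22A18. Same-numbered arrays did not deviate together (r of -0.41, -0.74 and -0.39 between deviations from the group means), so replicate numbers were not used as pairs. On simulated data 200 of 37879 targets were changed 4-fold. The comparison of all 6 arrays recovered 91% of them with 16 false calls, and that of 4 arrays 83.5% with 0. These rates describe the simulated arrays only. The measured arrays numbered 2 went against their labels, so the 91% does not give the power of the comparison by the labels.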

Additional observations from a re-analysis of the deposited data

How the results depend on the processing

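Leaving out both arrays numbered 2 changed most counts by over 1.5 times, and the cause was not tested. By the labels and over all targets, 10 were enriched and 16 depleted past the methods' threshold and 0 passed the adjusted p (3638 at an unadjusted p under 0.05, limma), against 460, 105 and 2107 without both arrays. Among the solute carriers 19 were higher and 7 lower at the unadjusted p, against 51 and 15, and 0 passed the adjusted p against 30. Their median log2 fold change was 0.12, against 0.22. The numbers enriched were 4 with median centring, 1 without background correction and 1 with variance stabilization and spline, 6 with the methods' t-test, 27 with a trend and 6 with the replicate block, and the numbers depleted were 0 without background correction and 0 with variance stabilization. Of the solute carriers 9 were higher with median centring, 12 over targets detected on 3 or more arrays, 10 by the methods' t-test and 12 with the replicate block. The shares of all targets tested that were higher were 3.20%, 6.29%, 3.64% and 3.00%, in the same order, against 4.44% by the main comparison. Lower were 3 over detected targets and 4 with a trend, and the median was 0.030 with variance stabilization. Without a single array, 2 to 266 were enriched and 9 to 37 depleted, 10 to 43 solute carriers were higher and 4 to 16 lower, and the median ran from 0.10 to 0.19. Where 10 solute carriers were higher, so were 2.85% of all targets, and where 43 were, 7.89% of all targets. Each upper end of the enriched and solute carrier ranges came without Stau1 IP 2.

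Over 4 arrays the 27 solute carriers called higher became 5 with variance stabilization and 0 by the methods' t-test, and the 3 called lower became 0 with median centring, 1 with variance stabilization, 5 over detected targets, 0 by the t-test and 1 with the replicate block. All targets called fell from 2107 to 768 with variance stabilization and 0 by the t-test. Without a single array, where the lone array of a group is assumed to vary like the other group, 0 to 48 were higher and 0 to 9 lower, and 0 to 5331 of all targets were called. The value of 0 came without Stau1 IP 1 and without Stau1 IP 3, and the highest without control IP 3. All 30 genes kept their direction in these settings. This was fixed beforehand where only the test, the block or the targets tested changed, as the fold changes stay the same. It was largely fixed without a single array, since over 4 arrays both Stau1 IPs lay on one side of both control IPs for each gene. These settings were chosen after seeing the data. Of the genes that the naming rule gives, those whose sign turned without both arrays numbered 2 were SLC11A2 (0.15), SLC12A2 (0.22), SLC20A1 (0.29), SLC22A18 (-0.028), SLC2A12 (0.31) and SLC33A1 (0.46), none with an adjusted p under 0.05. SLC35A3, named after its values were seen, also turned, from -0.20 to 0.69 (adjusted p = 0.0423, limma).

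Without a single array the sign also turned for some named genes, with log2 fold changes from -0.36 to 0.015 for SLC11A2, -0.42 to 0.078 for SLC12A2, -0.26 to 0.31 for SLC20A1, -0.19 to 0.85 for SLC2A10, -0.40 to 0.20 for SLC2A12, -0.48 to 0.32 for SLC33A1, -0.054 to 0.12 for SLC39A14 and -0.55 to 0.091 for SLC4A11. Of 616 values of 44 named genes over 14 settings, 581 kept direction and side of the threshold, 20 reversed and 15 newly passed. Direction could not reverse with the methods' t-test, the trend, the replicate block or only detected targets, where fold changes stay the same. No result rests on read depth. For genes not detected in a group the fold given is the measured one and rests on values that did not pass detection.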
